A study of Mus musculus with 8 samples.

Results

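Sulfated sugar chains give cartilage matrix its charge and its capacity to hold water, and a cell builds, sulfates and trims them with a large set of enzymes. The 53 genes of that set described here code for the enzymes that make, modify and break down glycosaminoglycans, together with the enzymes and carriers that supply their precursors. They were picked by name for their role in the pathway, by a rule that uses no measured value. The choice was made with earlier results of these data known. All 53 were among the 55401 genes measured.

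The RNA came from primary mandibular fibrochondrocytes, the cells of the cartilage that covers the condyle of the lower jaw. There were 8 libraries, 4 from NG2/CSPG4 knockout cells (NG2ko) and 4 from wild type cells (WT). Both groups were taken from pups labelled as 10 to 14 days old, while the study's sequencing methods give 14 days. Both groups were grown under the same normal AMEM growth conditions without a further treatment, and both were collected at passage 4. The NG2ko mice, which the study calls global knockouts, were homozygous for a LacZ-tagged deletion allele of Cspg4. It was made from a knockout-first allele by a cross to a Cre line. The line was of 6N origin and was backcrossed to C57 BL/6J for 3 generations. The WT mice were C57 BL/6J animals from a commercial supplier. The sex of the pups and whether a library was made from 1 or several animals were not given in the sources used here. The study calls the 4 libraries of a genotype biological replicates, and the p-values below measure the spread between them.

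NG2/CSPG4 is itself a membrane proteoglycan that carries chondroitin sulfate. Chondroitin, dermatan and heparan sulfate are attached to core proteins through a common linkage region that begins with a xylose on a serine, while keratan sulfate uses other links. Chondroitin and heparan chains grow from it by the alternate addition of a glucuronic acid and an amino sugar, and sulfotransferases then place sulfates at defined positions. Hyaluronan, by contrast, has no core protein and no sulfate and is extruded through the cell membrane as it is made. Chondroitin 4-O and 6-O sulfates are the typical sulfates of cartilage aggrecan, and inherited defects of several of these enzymes cause skeletal disease in humans.

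Each library held 60317187 to 83668935 counts, and libraries of 1 genotype correlated at Spearman's rho of 0.986 to 0.990 over the tested genes. Levels are given as CPM, counts scaled to each library's size and TMM factor, where libraries are compared, and as the deposited FPKM, which also divide by length, where genes are compared. Cspg4, the targeted gene (chr9:56865033-56899870), was at 13.5, 8.71, 6.93 and 8.33 CPM in NG2ko and 228, 215, 201 and 241 CPM in WT. This left 4.23% of the WT level (log2 fold change -4.56, edgeR adjusted p = 1.92e-05), and the exact two-sided permutation test of 4 against 4 libraries gave its smallest possible p of 0.0286. Nnt, a gene in which C57 BL/6J mice carry a deletion and C57BL/6N mice do not, was at 56.1 to 82.4 CPM in NG2ko and 33.5 to 38.8 CPM in WT, so substrain differences and genotype cannot be told apart. The 4 Y-linked genes examined summed to 188 to 202 CPM in NG2ko and to 0 to 0.286 CPM in WT. Genotype and the sex that Y-linked expression reflects therefore cannot be told apart, likewise, in any comparison below. Of 24 tested myeloid markers 20 were higher in NG2ko and none was lower, and the whole list summed to 385 to 451 CPM in NG2ko and 115 to 136 CPM in WT. Of 15 tested chondrocyte markers 11 were higher and none was lower, with list sums of 1317 to 1612 CPM in NG2ko and 919 to 1213 CPM in WT, and Matn1 and Snorc had no count in any library. Of 12 fibrous matrix markers 1 was higher and 2 were lower. Their sums overlapped, at 78551 to 94731 CPM in NG2ko and 81404 to 97914 CPM in WT. Over all tested genes 5.45% were higher and 6.75% lower at an edgeR adjusted p under 0.05. The 8 endothelial markers summed to 2.67 to 4.63 CPM in NG2ko and 2.74 to 3.74 CPM in WT. The part of the myeloid and chondrocyte markers in the results below was not tested, and in RNA of whole cultures fewer cells of a type and less RNA per cell cannot be told apart.

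At an edgeR adjusted p under 0.05, 12 of the 51 tested glycosaminoglycan genes were called lower in NG2ko (23.5%, beside 6.75% of all tested genes). Another 3 were called higher, and their share of 5.88% was near the 5.45% of all tested genes. The genes that fell included the 3 main sulfotransferases for the 4-O position of chondroitin and dermatan sulfate, Chst11, Chst12 and Chst14, both a starter and a polymerase of heparan chains, Extl3 and Ext1, the hyaluronan synthase Has2, and Cemip, which binds hyaluronan and is needed for its breakdown. Chsy3, a chondroitin synthase, Hs3st3a1, a heparan 3-O sulfotransferase, and Slc26a2, the sulfate transporter, rose. All of these differences were moderate. Of the 15 calls, those of Extl3, Ext1, Ndst3, Ugdh and Uap1 did not hold in all of the alternative analyses given below. Log2 fold changes of the 12 genes that fell ran from -0.18 (Uap1) to -0.72 (Ndst3), and those of the 3 that rose from 0.31 to 0.39.

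Of the 53 genes 51 passed the filter on low counts, Ndst4 and Hs6st3 being left out, and 15 of the 51 (29.4%) were called at an edgeR adjusted p under 0.05. Over all 17190 tested genes 12.2% were called. In the lower direction the share was 23.5% of the glycosaminoglycan genes beside 6.75% of all genes, and in the higher direction 5.88% beside 5.45%. The median log2 fold change was -0.09 over the 51 genes and 0.02 over all tested genes, with 30 of the 51 below 0 and 21 above. CPM of the 2 genotypes did not overlap for 22 of the 51 (43.1%), 16 of them lower and 6 higher in NG2ko, beside 19.9% of all genes, 10.1% lower and 9.81% higher. An unadjusted edgeR p under 0.05 was reached by 24 of the 51 glycosaminoglycan genes and by 4383 of all 17190 tested genes (25.5%). The study's own limits were an unadjusted p under 0.05 with a log2 fold change over 1 in size. No glycosaminoglycan gene passed them in the edgeR fit, in DESeq2 or in limma-voom, while 3.21% of all genes did in the edgeR fit. Leaving out WT replicate 4 let 1 gene pass them, Chst3 at a log2 fold change of 1.02. On FPKM without a filter the genes called lower numbered 7 in place of 12. Among all called genes 44.7% were higher in NG2ko in the fit of counts and 55.8% to 56.5% in the fits of FPKM.

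**Figure D1:**
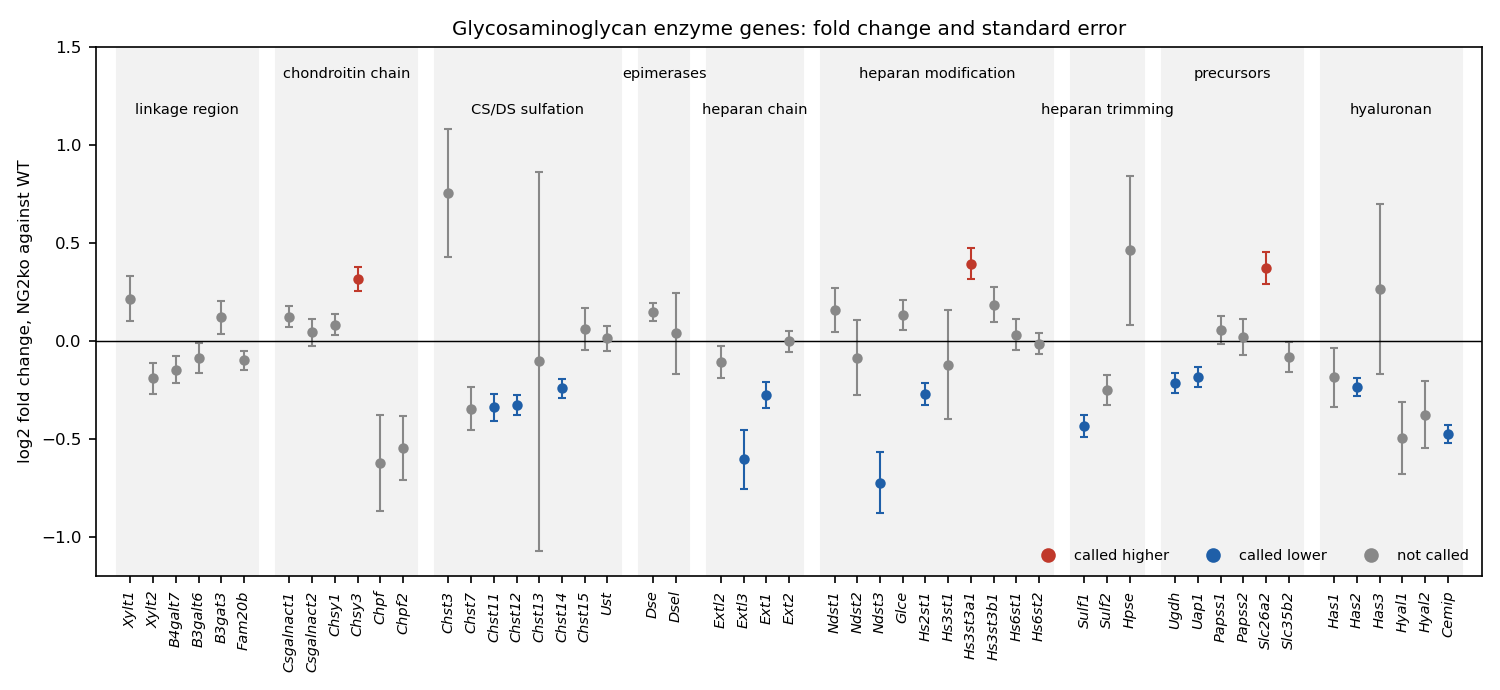
Log2 fold change (NG2ko against WT, vertical axis) of the 51 tested glycosaminoglycan genes, grouped by role, with bars of 1 standard error of the edgeR fit of 4 against 4 libraries. The 12 genes called lower lie between -0.18 and -0.72, the 3 called higher between 0.31 and 0.39, and the widest bars belong to Chst13, Hpse, Has3 and Chst3, which had low counts.

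The linkage region is the step that all sulfated chains but keratan sulfate share. None of its 6 genes was called, beside 12.2% of all genes. Xylt1 and Xylt2 place the first xylose, B4galt7 and B3galt6 add the galactoses, B3gat3 adds the glucuronic acid and Fam20b phosphorylates the xylose. B4galt7 had the highest level of the group at 18.5 ± 0.773 FPKM in NG2ko and 20.0 ± 1.87 FPKM in WT, with 59.3, 57.5, 56.3 and 60.9 CPM in NG2ko and 68.9, 56.7, 68.9 and 64.9 CPM in WT. WT replicate 2 lay within the NG2ko range and the other WT libraries above it (log2 fold change -0.15, SE 0.069, edgeR adjusted p = 0.213), and without that library the difference was called at -0.21 (edgeR adjusted p = 0.0378). It was not called in the other 17 of the 18 alternative analyses. Fam20b was the only gene of the group whose groups did not overlap, at 94.7, 95.9, 95.1 and 87.3 CPM in NG2ko and 98.4, 100.02, 104 and 97.3 CPM in WT (log2 fold change -0.10, SE 0.049, edgeR adjusted p = 0.249). Xylt2, the more abundant xylosyltransferase at 6.02 ± 0.306 FPKM in NG2ko and 6.70 ± 0.606 FPKM in WT, had a log2 fold change of -0.19, and Xylt1 one of 0.22 in the other direction, neither past the test. B3galt6 (-0.09) and B3gat3 (0.12) lay closer to 0. Of the 6 genes 1 had an unadjusted edgeR p under 0.05, and DESeq2 called none.

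Of 6 genes for elongation of the chondroitin chain 1 was called (16.7%, beside 12.2% of all genes). Chsy3, a synthase with both of the transferase activities that extend the chain (chr18:59175401-59535999), was at 39.4, 41.1, 39.2 and 40.8 CPM in NG2ko and 32.0, 35.4, 31.2 and 30.6 CPM in WT. Every NG2ko library was above every WT library, and the gene rose (log2 fold change 0.31, SE 0.061, edgeR adjusted p = 0.00801). Chsy1, its paralog, was the more abundant of the pair at 17.4 ± 0.891 FPKM in NG2ko and 16.0 ± 0.460 FPKM in WT, against 5.09 ± 0.137 FPKM in NG2ko and 3.99 ± 0.264 FPKM in WT for Chsy3. It was not called (log2 fold change 0.08, SE 0.054). Chsy3 made up 22.7% ± 0.851 of the summed FPKM of the pair in NG2ko and 20.0% ± 0.706 in WT (mean ± SD, n = 4), without overlap between the groups.

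Csgalnact1 and Csgalnact2 add the first N-acetylgalactosamine and so commit a linkage region to chondroitin. Csgalnact1 was above WT in every NG2ko library, at 71.7, 70.2, 77.1 and 69.3 CPM against 66.6, 67.7, 63.5 and 66.7 CPM, but by little (log2 fold change 0.12, SE 0.052, edgeR adjusted p = 0.171). Csgalnact2 had a log2 fold change of 0.04.

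Chpf and Chpf2 code for the partners that the synthases need for polymerization. Chpf2 had the highest level of the group at 24.8 ± 5.66 FPKM in NG2ko and 35.2 ± 1.79 FPKM in WT, with 162, 178, 100.5 and 163 CPM in NG2ko and 223, 214, 207 and 237 CPM in WT. The groups did not overlap, and NG2ko replicate 3 was far below the other NG2ko libraries. The difference missed the call (log2 fold change -0.55, SE 0.16, edgeR adjusted p = 0.0688) and was called at -0.39 without that library (edgeR adjusted p = 0.00633), at -0.55 by DESeq2 (adjusted p = 0.00294) and at -0.58 by limma-voom (adjusted p = 0.042). It was not called in 14 of the 18 alternative analyses. Chpf2 overlaps Smarcd3 on the opposite strand, and whether the counting used strand was not given in the sources used here. Chpf had the widest scatter of the chain genes, 74.6, 108, 74.4 and 88.3 CPM in NG2ko and 122, 93.2, 198 and 119 CPM in WT, with WT replicate 3 alone well above the rest and a log2 fold change of -0.62 (SE 0.25) that was not called (edgeR adjusted p = 0.167).

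Among the sulfotransferases for chondroitin and dermatan sulfate, 3 of the 4 genes of 4-O enzymes fell, and Chst13, barely detected, was not called. Of the 8 genes of the group 3 were called lower (37.5%, beside 6.75% of all genes) and none higher. Chst12 was the most abundant of them at 38.1 ± 1.46 FPKM in NG2ko and 46.5 ± 2.09 FPKM in WT. It transfers sulfate to the 4-O position of N-acetylgalactosamine in chondroitin and lies at chr5:140505550-140525724. Its level was 94.6, 103, 95.5 and 99.3 CPM in NG2ko and 124, 119, 117 and 132 CPM in WT. All NG2ko libraries were below all WT libraries, and the fitted level fell by 20.3% (log2 fold change -0.33, SE 0.053, edgeR adjusted p = 0.00296).

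Chst11 (chr10:82985498-83195900), the 4-O sulfotransferase whose loss disturbs the growth plate of mice, was at 56.9, 61.7, 53.2 and 51.5 CPM in NG2ko and 72.2, 74.5, 68.3 and 67.4 CPM in WT. Its groups did not overlap either, and the fitted level fell by 20.9% (log2 fold change -0.34, SE 0.067, edgeR adjusted p = 0.00849). Chst14 (chr2:118926496-118928585) sulfates the same position next to iduronic acid, in dermatan sulfate, and is mutated in a human form of Ehlers-Danlos syndrome. It was at 49.9, 51.5, 49.4 and 48.6 CPM in NG2ko and 59.5, 58.1, 56.8 and 61.5 CPM in WT, again without overlap, and its fitted level fell by 15.4% (log2 fold change -0.24, SE 0.050, edgeR adjusted p = 0.0106). The calls of Chst11, Chst12 and Chst14 held under all 18 alternative analyses. Chst13, the remaining 4-O enzyme, had 0 to 0.341 CPM in any library and gives no usable comparison.

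Chst11, Chst12 and Chst14 lie on 3 chromosomes and were all called lower, and whether they share a control was not tested. For each, a stretch of 190 bases upstream is shown, from 250 to 61 bases before the RefSeq start on build GRCm38.p6. Capitals mark matches, on either strand, to the GC box GGGCGG or the CCAAT box CCAAT, and the windows were also searched for TATAAA and TGANTCA. The searched motifs do not overlap one another in these windows.
Chst11, chr10:82985247-82985436, plus strand: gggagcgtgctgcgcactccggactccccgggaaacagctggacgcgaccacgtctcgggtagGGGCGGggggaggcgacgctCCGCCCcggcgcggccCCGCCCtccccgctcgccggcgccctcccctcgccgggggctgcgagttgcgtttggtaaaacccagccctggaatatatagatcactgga
Chst12, chr5:140505359-140505548, plus strand: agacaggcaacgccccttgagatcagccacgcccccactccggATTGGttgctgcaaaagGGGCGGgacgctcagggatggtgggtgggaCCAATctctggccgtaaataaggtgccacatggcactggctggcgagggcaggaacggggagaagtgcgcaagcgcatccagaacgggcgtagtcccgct
Chst14, chr2:118926247-118926436, plus strand: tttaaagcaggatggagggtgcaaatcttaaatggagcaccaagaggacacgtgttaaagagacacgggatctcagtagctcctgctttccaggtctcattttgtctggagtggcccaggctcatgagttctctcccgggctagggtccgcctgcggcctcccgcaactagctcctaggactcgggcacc
The Chst11 window held 3 GC boxes and was 72.1% G and C, that of Chst12 held 1 GC box and 2 CCAAT boxes (63.2% G and C), and that of Chst14 held none of the motifs (55.8% G and C). Of 32851 RefSeq promoter windows of the same length 22.8% held a GC box, 26.7% a CCAAT box, 8.73% TATAAA and 5.22% TGANTCA. No motif was present in all 3 windows, and a match is only a run of letters.

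The other sulfotransferases of the group were not called. Chst7 and Chst3 place sulfate at the 6-O position. The X-linked Chst7 was at 7.0, 7.83, 6.73 and 7.55 CPM in NG2ko and 9.38, 9.11, 7.86 and 10.6 CPM in WT, without overlap (log2 fold change -0.35, SE 0.11, edgeR adjusted p = 0.0711). The difference was called by DESeq2 (-0.35, adjusted p = 0.0338) and, in edgeR, without WT replicate 3 (-0.42, adjusted p = 0.0332), but not in the other 16 of the 18 alternatives. Chst3 lay the other way, at 0.645, 0.786, 0.677 and 0.728 CPM in NG2ko and 0.303, 0.352, 0.386 and 0.638 CPM in WT, with a mean of 40.8 counts per library, and was not called (log2 fold change 0.75, SE 0.33, edgeR adjusted p = 0.178). Chst15, which adds a further sulfate to 4-O sulfated units and overlaps Fgfr2 on the same strand, had a log2 fold change of 0.06, and Ust, which sulfates the uronic acid, one of 0.01.

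Neither of the epimerases that turn chondroitin into dermatan sulfate was called in the edgeR fit. Dse, the more abundant of the pair at 30.9 ± 0.797 FPKM in NG2ko and 27.2 ± 0.996 FPKM in WT, was at 162, 170.0, 173 and 167 CPM in NG2ko and 147, 154, 156 and 148 CPM in WT. All NG2ko libraries were above all WT libraries, and the difference lay close to the threshold (log2 fold change 0.15, SE 0.045, edgeR adjusted p = 0.0597). It was called by DESeq2 (0.14, adjusted p = 0.045), with the stricter filter (0.15, edgeR adjusted p = 0.0492) and in the 3 fits of FPKM, where the log2 fold change was 0.18 to 0.19 on the scale of log2(FPKM + pseudocount). The other 13 of the 18 alternatives did not call it. Dsel had levels of 33.8 CPM in WT replicate 1 and 56.9 to 70.2 CPM in the other libraries of either genotype, and a log2 fold change of 0.04. Of the pair 1 had an unadjusted edgeR p under 0.05.

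Heparan chains are started by Extl3, extended by the Ext1 and Ext2 complex, and limited by Extl2. Of these 4 genes Extl3 and Ext1 fell and none rose. Ext1 (chr15:53064038-53346159) was at 188, 194, 180.5 and 175 CPM in NG2ko and 203, 245, 211 and 232 CPM in WT. The groups did not overlap, and the gap between the highest NG2ko and the lowest WT library was small (log2 fold change -0.27, SE 0.066, edgeR adjusted p = 0.0229). Leaving out NG2ko replicate 1, 3 or 4 or WT replicate 4 ended this call, at log2 fold changes of -0.25 to -0.28 (edgeR adjusted p of 0.0536 to 0.0695). Ext2, with which Ext1 forms the polymerase, was at 148, 169.6, 164 and 161 CPM in NG2ko and 167, 158, 154 and 166 CPM in WT, with overlapping groups (log2 fold change -0.0027, SE 0.055). Ext2 overlaps Alx4 on the opposite strand. The share of Ext1 in the summed FPKM of the pair was 51.0% ± 1.77 in NG2ko and 55.6% ± 2.45 in WT (mean ± SD, n = 4), and the 2 groups overlapped.

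Extl3 (chr14:65052060-65098106) was at 71.1, 119, 115 and 113 CPM in NG2ko and 166, 161, 148 and 161 CPM in WT. NG2ko replicate 1 lay far below the other NG2ko libraries, which were themselves below every WT library (log2 fold change -0.61, SE 0.15, edgeR adjusted p = 0.0349). Without that library the log2 fold change was -0.46 (edgeR adjusted p = 0.00142). The call was lost on leaving out NG2ko replicate 3 or 4 or any 1 of the WT libraries, with log2 fold changes of -0.59 to -0.65 (edgeR adjusted p of 0.0584 to 0.0879). Extl2, which can end a chain by transfer of an amino sugar, was not called (-0.11, SE 0.080).

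Modification of heparan sulfate begins with N-deacetylation and N-sulfation by the Ndst enzymes, after which Glce converts glucuronic to iduronic acid and 2-O, 6-O and 3-O sulfotransferases follow. Of the 10 tested genes 2 fell (20.0%, beside 6.75% of all genes) and 1 rose (10.0%, beside 5.45%). Hs2st1, the only 2-O sulfotransferase of heparan sulfate (chr3:144429706-144570181), was at 79.3, 82.1, 75.8 and 71.5 CPM in NG2ko and 92.8, 95.5, 95.7 and 88.7 CPM in WT. Every NG2ko library lay below every WT library (log2 fold change -0.27, SE 0.056, edgeR adjusted p = 0.0108).

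Ndst3 (chr3:123526166-123690853) was at 2.35, 2.52, 3.17 and 2.20 CPM in NG2ko and 3.64, 4.17, 4.63 and 4.48 CPM in WT, which was the largest log2 fold change of the called genes (log2 fold change -0.72, SE 0.16, edgeR adjusted p = 0.0132). Its message is a minor one in these cells, with 1.12% ± 0.191 of the summed FPKM of the Ndst family in NG2ko and 2.01% ± 0.454 in WT (mean ± SD, n = 4). The call was lost in 2 of the fits of FPKM, where the log2 fold change was -0.52 on the scale of log2(FPKM + 0.1) (limma adjusted p = 0.0514 and 0.0964). Ndst1 made up most of the family, at 79.9% ± 6.33 in NG2ko and 76.5% ± 1.5 in WT, and had a log2 fold change of 0.16 that was not called (SE 0.11). It overlaps the abundant ribosomal gene Rps14 on the opposite strand. Ndst2 stood at 29.2 CPM in NG2ko replicate 4 and 16.2 to 23.6 CPM in every other library (-0.09, SE 0.19), and Ndst4 at 0 to 0.171 CPM.

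Hs3st3a1 adds the rare 3-O sulfate (chr11:64435332-64522841). It was at 16.1, 16.2, 15.3 and 15.0 CPM in NG2ko and 11.3, 13.3, 11.5 and 11.6 CPM in WT. All NG2ko libraries were above all WT libraries, and the gene rose (log2 fold change 0.39, SE 0.080, edgeR adjusted p = 0.00963). The paralog Hs3st3b1, at 11.0 ± 0.900 FPKM in NG2ko and 9.40 ± 0.994 FPKM in WT, was more abundant than Hs3st3a1 at 3.65 ± 0.118 FPKM in NG2ko and 2.70 ± 0.198 FPKM in WT, and had a log2 fold change of 0.19 (edgeR adjusted p = 0.22). Transcripts of the 2 paralogs share an identical run of up to 401 bases, and 10.7% of the 50-base words of the Hs3st3a1 transcript are also in that of Hs3st3b1, so the split of counts between them is uncertain. Summed over both genes the level was 74.5 ± 5.21 CPM in NG2ko and 63.6 ± 6.32 CPM in WT (mean ± SD, n = 4), with overlapping groups and an exact two-sided permutation p of 0.0857. Hs3st1 was at or below 0.794 CPM in all libraries (-0.12, SE 0.28).

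The remaining modification enzymes were not called. Glce, the C5 epimerase and the gene of this group with the highest FPKM (26.6 ± 0.555 FPKM in NG2ko and 23.7 ± 2.81 FPKM in WT), was at 198, 205, 199 and 191 CPM in NG2ko and 203, 187, 180.4 and 153 CPM in WT, with WT replicate 4 below the rest (0.13, SE 0.077). The gene lies 5.16 Mb from Cspg4 on chromosome 9. Hs6st2, the main 6-O sulfotransferase at 20.8 ± 0.417 FPKM in NG2ko and 20.4 ± 1.39 FPKM in WT, had a log2 fold change of -0.01 (SE 0.055) and Hs6st1 one of 0.03 (SE 0.080). Hs6st3 was at 0 to 0.335 CPM and was not tested.

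After export, 6-O sulfates are removed from heparan chains at the cell surface by Sulf1 and Sulf2. Sulf1 fell, with an SD of 0.802 CPM among its NG2ko libraries and 18.6 CPM among its WT libraries. Its level was 192, 191, 193 and 192 CPM in NG2ko and 278, 270.4, 253 and 237 CPM in WT (chr1:12692277-12861192). The NG2ko libraries lay close together and well below the lowest WT library, and the fitted level fell by 26.1% (log2 fold change -0.44, SE 0.055, edgeR adjusted p = 0.000667). Sulf2 was the most abundant of all 53 genes at 67.7 ± 5.65 FPKM in NG2ko and 78.4 ± 5.94 FPKM in WT, with 419.6, 487, 434 and 394 CPM in NG2ko and 507, 547, 458 and 551 CPM in WT. NG2ko replicate 2 lay above WT replicate 3, the other NG2ko libraries below every WT library, and the difference missed the call (log2 fold change -0.25, SE 0.078, edgeR adjusted p = 0.0665). Without NG2ko replicate 2 or without WT replicate 3 it was called at -0.31 (edgeR adjusted p = 0.0307 and 0.0282), and so by DESeq2 at -0.26 (adjusted p = 0.0327). The other 15 of the 18 alternatives did not call it. Hpse, the heparanase that cuts the chain, was at 0.529 to 1.77 CPM (0.46, SE 0.38).

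Of the 6 precursor genes 1 rose (16.7%, beside 5.45% of all genes) and 2 fell (33.3%, beside 6.75%). Slc26a2, the transporter that brings sulfate into the cell and that is mutated in human chondrodysplasias (chr18:61192919-61211612), was at 79.0, 90.0, 79.4 and 83.8 CPM in NG2ko and 63.0, 73.6, 63.3 and 56.5 CPM in WT. Every NG2ko library was above every WT library, and the fitted level was 29.5% higher (log2 fold change 0.37, SE 0.081, edgeR adjusted p = 0.0139). Papss1 and Papss2, which turn sulfate into the activated donor, were not called (0.06, SE 0.070, and 0.02, SE 0.092), nor was Slc35b2, which carries that donor into the Golgi. Slc35b2 had the highest FPKM of the precursor genes (31.7 ± 2.05 FPKM in NG2ko and 32.6 ± 3.18 FPKM in WT) and was at 109, 99.6, 106 and 114 CPM in NG2ko and 119.9, 97.3, 117 and 120.2 CPM in WT, with WT replicate 2 below all other libraries (-0.08, SE 0.075).

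The sugar nucleotide enzymes Ugdh and Uap1 fell by small amounts. Ugdh makes UDP-glucuronic acid, the building block of chondroitin, heparan sulfate and hyaluronan alike (chr5:65413221-65435949). It was at 115, 108, 118 and 118 CPM in NG2ko and 134, 127, 141 and 130.1 CPM in WT, without overlap (log2 fold change -0.22, SE 0.052, edgeR adjusted p = 0.0229). Uap1 makes UDP-N-acetylglucosamine (chr1:170141938-170174957) and was at 52.6, 53.1, 55.6 and 53.3 CPM in NG2ko and 62.6, 60.7, 57.5 and 63.1 CPM in WT, also without overlap (log2 fold change -0.18, SE 0.051, edgeR adjusted p = 0.0431). Both calls were near the threshold. That of Ugdh ended without NG2ko replicate 1, 2 or 3 or WT replicate 1 (log2 fold changes of -0.19 to -0.23, edgeR adjusted p of 0.0512 to 0.0656), and that of Uap1 without any 1 library other than WT replicate 3 (-0.17 to -0.20, edgeR adjusted p of 0.0653 to 0.121).

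The most abundant genes of hyaluronan synthesis and of its breakdown, Has2 and Cemip, both fell. They were 2 of the 6 genes of this group (33.3%, beside 6.75% of all genes called lower). Has2 accounted for nearly all of the hyaluronan synthase message, 97.1% ± 0.339 of the summed FPKM of the 3 synthases in NG2ko and 97.2% ± 0.385 in WT (mean ± SD, n = 4). Its level was 100.6, 97.5, 99.7 and 105 CPM in NG2ko and 119, 118, 123 and 114 CPM in WT (chr15:56665627-56694539). No NG2ko library reached the lowest WT library, and the fitted level fell by 15.1% (log2 fold change -0.24, SE 0.047, edgeR adjusted p = 0.00834). The antisense gene Has2os overlaps Has2 but had a mean of 122 counts per library beside 7863 for Has2. Has1 was at 2.70 to 3.87 CPM (-0.19, SE 0.15) and Has3 at 0.252 to 0.844 CPM (0.27, SE 0.43).

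Cemip codes for a hyaluronan-binding protein that fibroblasts need to depolymerize hyaluronan (chr7:83932857-84086502). Its level was 37.2 ± 0.820 FPKM in NG2ko and 50.3 ± 2.39 FPKM in WT, next to Sulf2 in WT but in NG2ko just under Chst12, and the gene had the smallest adjusted p of the 51 tested genes. By library it was at 499, 486, 495 and 503 CPM in NG2ko and 738, 679, 660.3 and 681 CPM in WT. The NG2ko libraries lay close together and far below the lowest WT library, and the fitted level fell by 28.1% (log2 fold change -0.48, SE 0.047, edgeR adjusted p = 0.000136). Its upstream window is shown as that of the gene with the clearest difference, from 250 to 61 bases before its RefSeq start on GRCm38.p6, with GC boxes in capitals.
Cemip, chr7:84086566-84086755, minus strand: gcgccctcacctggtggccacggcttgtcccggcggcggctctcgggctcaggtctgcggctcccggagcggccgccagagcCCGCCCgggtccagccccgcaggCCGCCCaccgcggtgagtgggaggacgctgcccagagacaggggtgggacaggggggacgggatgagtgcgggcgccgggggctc
The Cemip window held 2 GC boxes, none of the other searched motifs, and was 78.4% G and C.

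The hyaluronidases were not called. Hyal1, a lysosomal enzyme, was at 14.5, 19.2, 15.4 and 9.43 CPM in NG2ko and 22.1, 19.4, 19.3 and 21.7 CPM in WT, a narrow gap without overlap (log2 fold change -0.50, SE 0.18, edgeR adjusted p = 0.119). The difference was called by DESeq2 (-0.50, adjusted p = 0.0381) and, in edgeR, without NG2ko replicate 2 (-0.65, adjusted p = 0.0366), but not in the other 16 of the 18 alternatives. Hyal1 overlaps Naa80 and Hyal3 on the same strand, so its counts are uncertain. Hyal2, anchored at the cell surface, was at 18.1, 23.5, 21.9 and 32.4 CPM in NG2ko and 35.6, 31.3, 31.2 and 26.1 CPM in WT, with NG2ko replicate 4 inside the WT range (log2 fold change -0.38, SE 0.17, edgeR adjusted p = 0.210). Without that library the difference was called at -0.56 (edgeR adjusted p = 0.0228), and in the other 17 of the 18 alternatives it was not called.

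**Figure D2:**
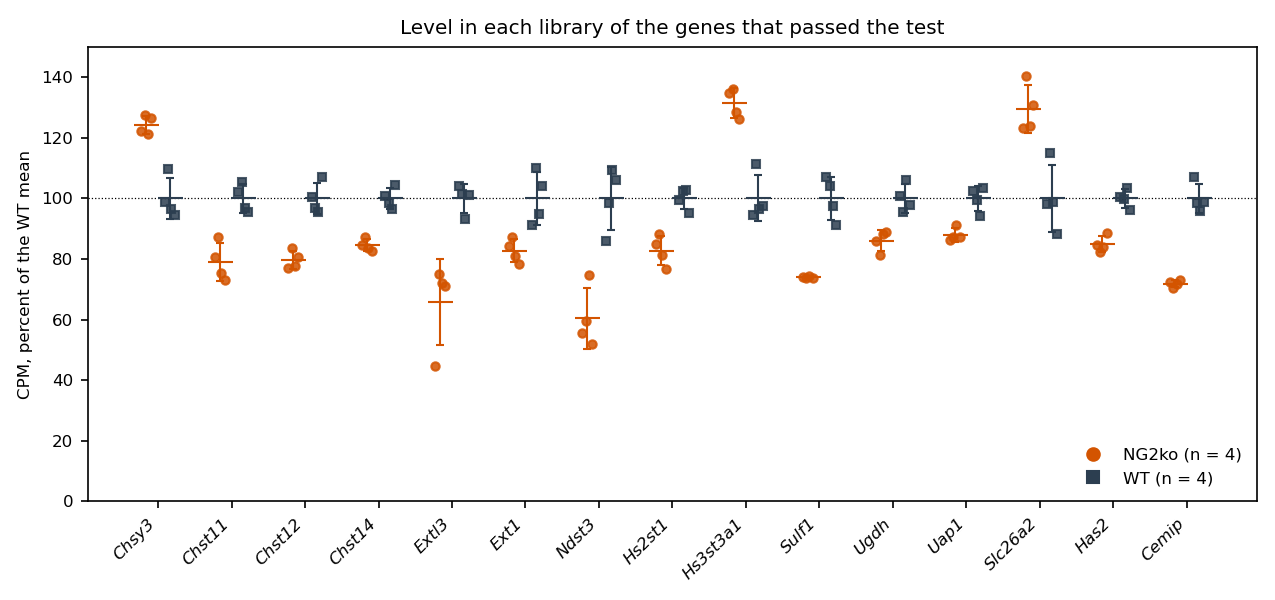
Level of the 15 called genes in each library (CPM as percent of the WT mean, vertical axis), for NG2ko (circles, n = 4) and WT (squares, n = 4), with the mean and SD of each group. NG2ko and WT libraries do not overlap for any of the 15 genes, and the NG2ko circle that stands lowest is replicate 1 for Extl3 at 71.1 CPM.

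Within families, the division of message among isoenzymes overlapped between the genotypes in 12 of 15. The chondroitin 4-O enzymes Chst12 and Chst11 both fell, and their shares in the sum of Chst11, Chst12 and Chst13, which leaves out the dermatan enzyme Chst14, were 80.3% ± 1.22 and 19.5% ± 1.07 in NG2ko and 80.2% ± 1.33 and 19.7% ± 1.30 in WT (mean ± SD of FPKM shares, n = 4). Sulf2 held 81.2% ± 1.35 of the pair in NG2ko and 79.2% ± 1.92 in WT. Shares without overlap were found in 3 families. These were Chsy3, as given above, Ndst3, and Chst3, whose share of the 6-O pair was 3.18% ± 0.111 in NG2ko and 1.48% ± 0.408 in WT. Chst3 and Ndst3 are minor members in both genotypes, while Chst7 and Ndst1 dominate. The Chst3 share rests on 18 to 55 counts per library. CPM of the genotypes did not overlap for 19.9% of all tested genes, so 3 families of 15 is not read as particular to these families. The family shares are a description without a test.

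**Figure D3:**
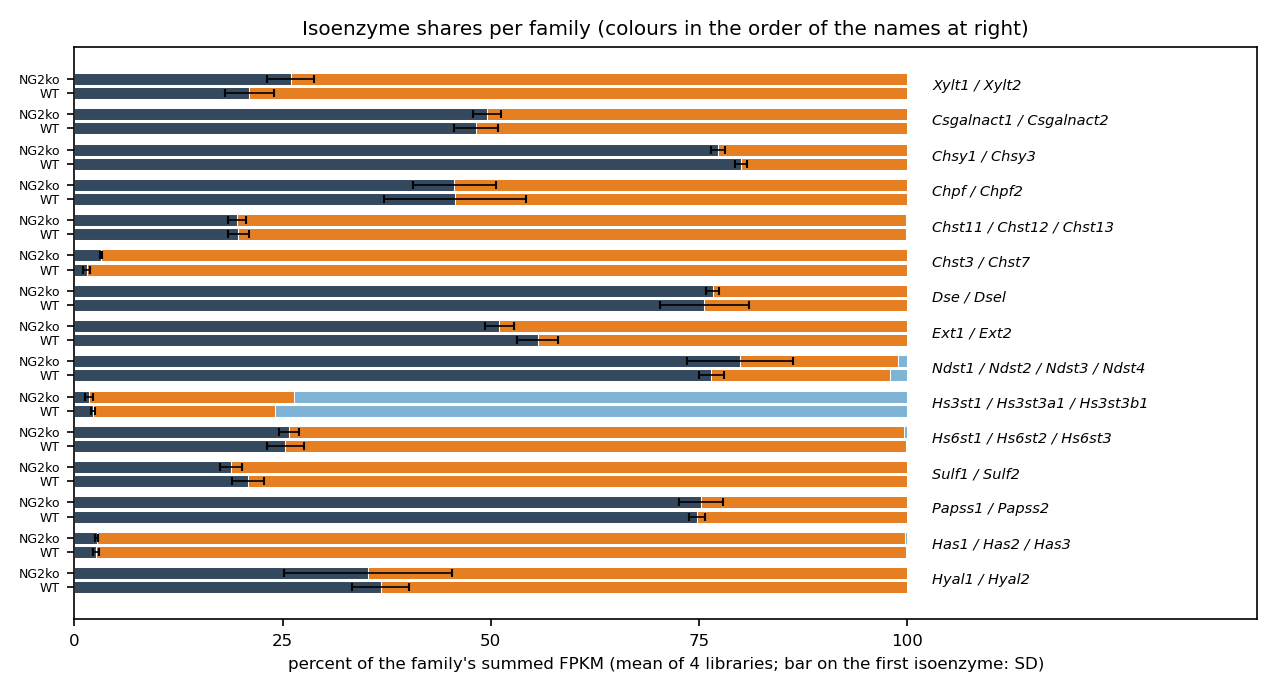
Share of each isoenzyme in the summed FPKM of its family (percent, horizontal axis), as the mean of 4 libraries per genotype with the SD drawn on the first isoenzyme. Chst12 holds 80.3% of the sum of Chst11, Chst12 and Chst13 in NG2ko and 80.2% in WT, and Chsy3 takes 22.7% of its pair in NG2ko and 20.0% in WT.

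Of the same pathway 52 further genes outside the set of 53 were listed, of which 41 were tested. This list too was chosen with earlier results of these data known. Of the 41 genes 11 (26.8%) were called, 4 higher and 7 lower, beside 12.2% of all genes. Of 14 tested genes of precursor supply 2 were called higher (14.3%, beside 5.45% of all genes) and 1 lower (7.14%, beside 6.75%). Gfpt1 and Gfpt2 rose, which code for the first and rate-limiting enzyme of hexosamine synthesis. Gfpt2 was at 19.1, 18.3, 19.8 and 18.5 CPM in NG2ko and 13.1, 15.0, 14.5 and 16.5 CPM in WT (log2 fold change 0.36, SE 0.083, edgeR adjusted p = 0.0190), and Gfpt1 at 149, 158, 151 and 144 CPM in NG2ko and 127, 139, 121 and 107 CPM in WT (log2 fold change 0.29, SE 0.076, edgeR adjusted p = 0.0361). Leaving out NG2ko replicate 1 or 3 or WT replicate 1 ended the Gfpt2 call (0.31 to 0.35, edgeR adjusted p of 0.0508 to 0.0602), and leaving out any library but WT replicate 2 ended that of Gfpt1 (0.22 to 0.31, edgeR adjusted p of 0.0558 to 0.0918). Slc35b4, a carrier of UDP-xylose into the Golgi, fell (log2 fold change -0.19, SE 0.045, edgeR adjusted p = 0.0222). Its call ended without NG2ko replicate 1, 3 or 4 or WT replicate 1 (-0.18 to -0.20, edgeR adjusted p of 0.0511 to 0.0790).

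Of 4 tested genes of other synthesis steps 2 were called, in opposite directions. Pxylp1, the phosphatase that removes from the linkage xylose the phosphate that Fam20b adds, was at 15.6, 16.1, 15.9 and 18.1 CPM in NG2ko and 21.8, 22.5, 21.3 and 19.7 CPM in WT and fell (log2 fold change -0.37, SE 0.077, edgeR adjusted p = 0.0102). Extl1, a transferase of heparan chain elongation, was at 4.53, 2.76, 3.88 and 3.51 CPM in NG2ko and 1.97, 2.31, 2.31 and 1.45 CPM in WT and rose (log2 fold change 0.87, SE 0.21, edgeR adjusted p = 0.0210). That call ended without NG2ko replicate 1 or 3 or WT replicate 1 (0.75 to 0.86, edgeR adjusted p of 0.0563 to 0.0677).

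Among the genes of lysosomal and other turnover, Ids and Sgsh fell, both of which code for sulfatases of heparan sulfate breakdown. Ids, X-linked, removes the 2-O sulfate of iduronic acid and was at 113, 105, 107 and 108 CPM in NG2ko and 144, 139, 143 and 126 CPM in WT (log2 fold change -0.34, SE 0.055, edgeR adjusted p = 0.00270). Sgsh removes the N-sulfate and was at 45.4, 48.2, 44.7 and 40.4 CPM in NG2ko and 59.8, 57.6, 53.3 and 58.5 CPM in WT (log2 fold change -0.36, SE 0.066, edgeR adjusted p = 0.00597). For both genes every NG2ko library lay below every WT library.

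Keratan sulfate enzymes gave 2 calls of 7, both lower (28.6%, beside 6.75% of all genes). Chst1, which sulfates the galactose of keratan sulfate, was at 1.75, 1.38, 1.82 and 2.25 CPM in NG2ko and 3.01, 4.93, 4.56 and 3.87 CPM in WT (log2 fold change -1.18, SE 0.20, edgeR adjusted p = 0.00401) and was the only pathway gene past the study's own limits. B4galt1, a galactosyltransferase that also serves protein N-glycans, was at 214, 213, 207 and 213 CPM in NG2ko and 262, 255, 257 and 265 CPM in WT (log2 fold change -0.30, SE 0.040, edgeR adjusted p = 0.000996).

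**Figure D4:**
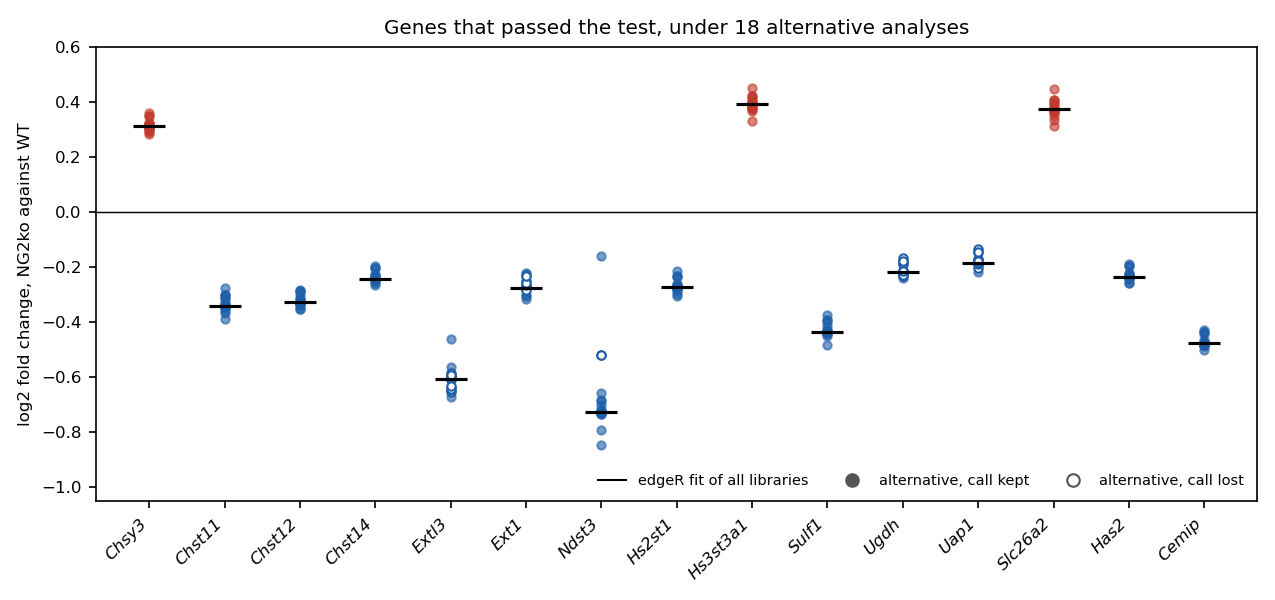
Log2 fold change (vertical axis) of the 15 called genes in the edgeR fit of all libraries (black line) and in 18 alternative analyses (filled where the call was kept, open where it was lost). All points keep their sign, 10 genes have filled points only, and open points occur for Extl3, Ext1, Ndst3, Ugdh and Uap1.

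The 15 calls differed in how firmly the data carry them. Chsy3, Chst11, Chst12, Chst14, Hs2st1, Hs3st3a1, Sulf1, Slc26a2, Has2 and Cemip were called in all 18 alternatives. Extl3 lost its call in 9 of them, Ext1 in 5, Ndst3 in 2, Ugdh in 7 and Uap1 in 12, always with the direction kept. The highest adjusted p among the alternatives was 0.0879 for Extl3, 0.0703 for Ext1, 0.0964 for Ndst3, 0.10 for Ugdh and 0.121 for Uap1. For Hs3st3a1 no alternative dealt with the uncertain split of counts with Hs3st3b1.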

How the data were processed

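Per the labels and the study's methods, poly(A) RNA of 4 NG2ko and 4 WT cultures was sequenced as stranded paired-end libraries. The authors trimmed reads, checked them with FastQC, mapped them with HISAT2 to the Ensembl mouse genome and assembled and quantified transcripts with StringTie and edgeR; versions and the counter are not given in the sources used here. The deposited table holds unnormalized counts and, from StringTie, FPKM, in which a count of 0 stands as 0.0001.

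TMM gave the scaling of counts and filterByExpr (minimum count 10) the 17190 genes to test. The test was that of edgeR 4.0.16, run in R 4.3.3 (quasi-likelihood, robust prior, genotype as the only term, Benjamini-Hochberg adjustment over all tested genes). A call means an adjusted p under 0.05. SE is the absolute log2 fold change over the square root of F. The code was tested on simulated counts.

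The members, lists and markers were chosen with earlier results of these data known. Values per library are given for each called member and, per role, the member of highest FPKM; fold, SE and adjusted p for members without overlap; the rest by level or fold; of other pathway lists, the called genes, some of which are not reported here. Members further detailed for scatter or a close call were chosen after their values were seen. The alternatives left out each library in turn, added the replicate number as a block, or used no filter, at least 1 CPM in 4 libraries, upper-quartile scaling, an ordinary prior, DESeq2 1.42.0, limma-voom (limma 3.58.1), and limma on log2 FPKM with pseudocounts of 0.1 and 1 and, at 0.1, no filter. The authors' fold changes and p-values in the table were not used. Promoter windows are from RefSeq (GRCm38.p6), which held 42 of the 53 members. Of the members' coordinates, 49 are identical in GENCODE M21 (GRCm38). Summaries and figures used Python 3.11.15 and matplotlib 3.10.9.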

Additional observations from a re-analysis of the deposited data

Results flagged for a closer look

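In 8 of 124 groups of 4 libraries screened (each genotype of each tested member and each called pathway gene), 1 library stood apart from the other 3 by more than Dixon's 95% critical value, while chance gives about 1 in 20. B3gat3 was at 30.2 CPM in NG2ko replicate 2 beside 35.3 to 35.7 CPM in the others. Fam20b was at 87.3 CPM in NG2ko replicate 4 beside 94.7 to 95.9 CPM. Extl3 was at 71.1 CPM in NG2ko replicate 1 beside 113 to 119 CPM, and its difference was called with and without that library. The Extl3 call was lost in 9 of the 18 alternatives. Ndst2 was at 29.2 CPM in NG2ko replicate 4 beside 16.2 to 17.1 CPM, and B4galt1 at 207 CPM in NG2ko replicate 3 beside 213 to 214 CPM. In WT replicate 2, Ust was at 24.5 CPM beside 22.0 to 22.3 CPM, Hs3st3a1 at 13.3 CPM beside 11.3 to 11.6 CPM and Slc35b2 at 97.3 CPM beside 117 to 120.2 CPM.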

How the results depend on the processing

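The 15 called members numbered 11 to 20 under the 18 alternatives and 13 with the replicate block, and 12 to 16 when 1 library was left out. Same-numbered libraries of the 2 genotypes correlated at 0.000995 to 0.0441 in their deviations from the group means. Libraries of different number correlated at -0.0297 to 0.0158, and these values do not settle whether the numbers pair the libraries. With the replicate block 1815 genes were called in place of 2097, and among the named genes Extl3 (edgeR adjusted p = 0.0877), Uap1 (0.0929) and Slc35b4 (0.0561) lost the call. Genes called higher numbered 613 to 900 when 1 library was left out, in place of 937, the lowest without NG2ko replicate 3. On FPKM without a filter 764 genes were called lower in place of 1160, and 7 members in place of 12. Of 1123 values of named genes under alternatives 1021 kept their direction and side of the threshold, 57 lost the call, 18 gained it and 27 turned, all of genes that were not called, and the cause was not tested. On leaving out 1 library the log2 fold change ran from -0.90 to 0.46 for Chst13, -0.0077 to 0.085 for Csgalnact2, -0.15 to 0.15 for Dsel, -0.029 to 0.035 for Ext2, -0.21 to 0.47 for Has3, -0.23 to 0.026 for Hs3st1, -0.012 to 0.076 for Hs6st1, -0.055 to 0.026 for Hs6st2, -0.33 to 0.000061 for Ndst2, -0.0053 to 0.088 for Papss1, -0.044 to 0.066 for Papss2 and -0.0080 to 0.051 for Ust. Ext2 also turned without a filter (0.0028) and on FPKM (0.035 with a pseudocount of 0.1, with or without the filter, and 0.034 with 1), and so did Hs6st2 on FPKM (0.028 and 0.026). Depth limits the genes under about 1 CPM, Chst3, Chst13, Hs3st1, Has3, Hpse, Ndst4 and Hs6st3.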
